A study of Mus musculus with 16 samples.

Results

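The genes described here are 33 interferon-stimulated genes, chosen by symbol as genes known to respond to type I and type II interferon, with chemokines and MHC genes left out. Their rows were taken from kidney RNA count tables of 40879 gene symbols in 16 libraries. All 33 had at least 1 count, and 32 passed the filter on low counts, against 14665 of all symbols. Oas1a was removed by that filter and has no test.

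Interferons are secreted proteins that bind receptors on nearly all cells and activate JAK kinases and STAT factors. Type I interferon works through a complex that holds STAT2 and IRF9 and binds the interferon-stimulated response element, and interferon gamma acts through the gamma-activated sequence. The induced genes sense foreign RNA and DNA, block translation and virus release, and attack vacuoles that hold microbes. In the kidney, such genes are known to respond in tubule cells, endothelium and resident macrophages.

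The series compared kidneys of male C57BL/6 mice, all labelled wild type, by QuantSeq sequencing of transcript 3′ ends. The Young group holds 5 libraries of mice aged 3 months. The Old group holds 5 libraries of naturally aged, untreated mice, whose age at sampling the labels do not give. The other groups hold 3 libraries each: Old + YM received Yukmijihwang-tang and Old + PM received Palmijihwang-tang, both traditional herbal formulas, by mouth. Dosing was 100 mg/kg per day, given 5 days weekly, and lasted from month 19 of life to month 24. The aged mice were allotted to their groups after 5 months of acclimatization. In 1 sentence of the design text the PM group is described with YM as its agent; PM was taken as its agent here, which is what its name and the other sentences say. The labels do not tie libraries to individual mice, and p-values therefore measure the spread between libraries, which may be technical.

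Library totals ran from 8223008 to 10914515 counts, and levels are given as CPM, counts scaled to a common library size with TMM factors, where 1 CPM stood for 7.61 to 11.3 counts. Values are levels in CPM unless called log2 differences. Counts from 3′ ends are not per length, so no level is compared between genes. The proximal tubule markers that define kidney cortex were detected in every library, with summed levels of 10130 to 15475 CPM. The library called Old 5 stood apart from the other Old libraries in most of what follows, so the Old against Young differences of the members are given with and without it.

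In the Old kidneys, 4 interferon-stimulated genes rose against Young and none fell. They were Ifih1, Ifit2, Oasl2 and Mx1, all of antiviral RNA sensing or defence, and their fitted folds ran from 1.86 to 6.47. These are 4 of 32 members (12.5%), where 13.6% of all genes were called in either direction 6.47% were called higher and 7.13% lower at an adjusted p under 0.05 (edgeR's quasi-likelihood test, Benjamini-Hochberg adjustment over 14665 genes, two-sided). The share called was thus near the background. The direction was less so: 31 of 32 members had a fitted log2 difference above 0, against 52.6% of all genes, and the members' median was 0.98 against 0.02. A further 10 members, 14 of 32 in all, had an unadjusted p under 0.05 on the higher side, where 14% of all genes did. The 2 groups did not overlap, with every Old library above every Young library, for Ifih1, Ifit3 and Oasl2 (3 of 32, or 9.38%, against 4.21% of all genes).

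Without Old 5 no member was called by the same test, while 8.29% of all genes still were. Then 24 of 32 members had a log2 difference above 0, against 49.6% of all genes, and the median was 0.32, against -0.003. On the higher side 5 of 32 members had an unadjusted p under 0.05. The share of all genes was not computed for this fit (14% with all libraries). The count therefore cannot be set against a background. The calls also depended on single Young libraries: 2 members were called without Young 1 or Young 2 (9.53% and 9.3% of all genes called), and 1 without Young 3 or Young 4 (9.58% and 8.45%). On all libraries DESeq2 called 8 members and 16.9% of all genes, and limma-voom 1 and 12.1%. In bulk tissue, more cells of a type that carries these transcripts and more RNA per cell cannot be told apart.

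**Figure D1:**
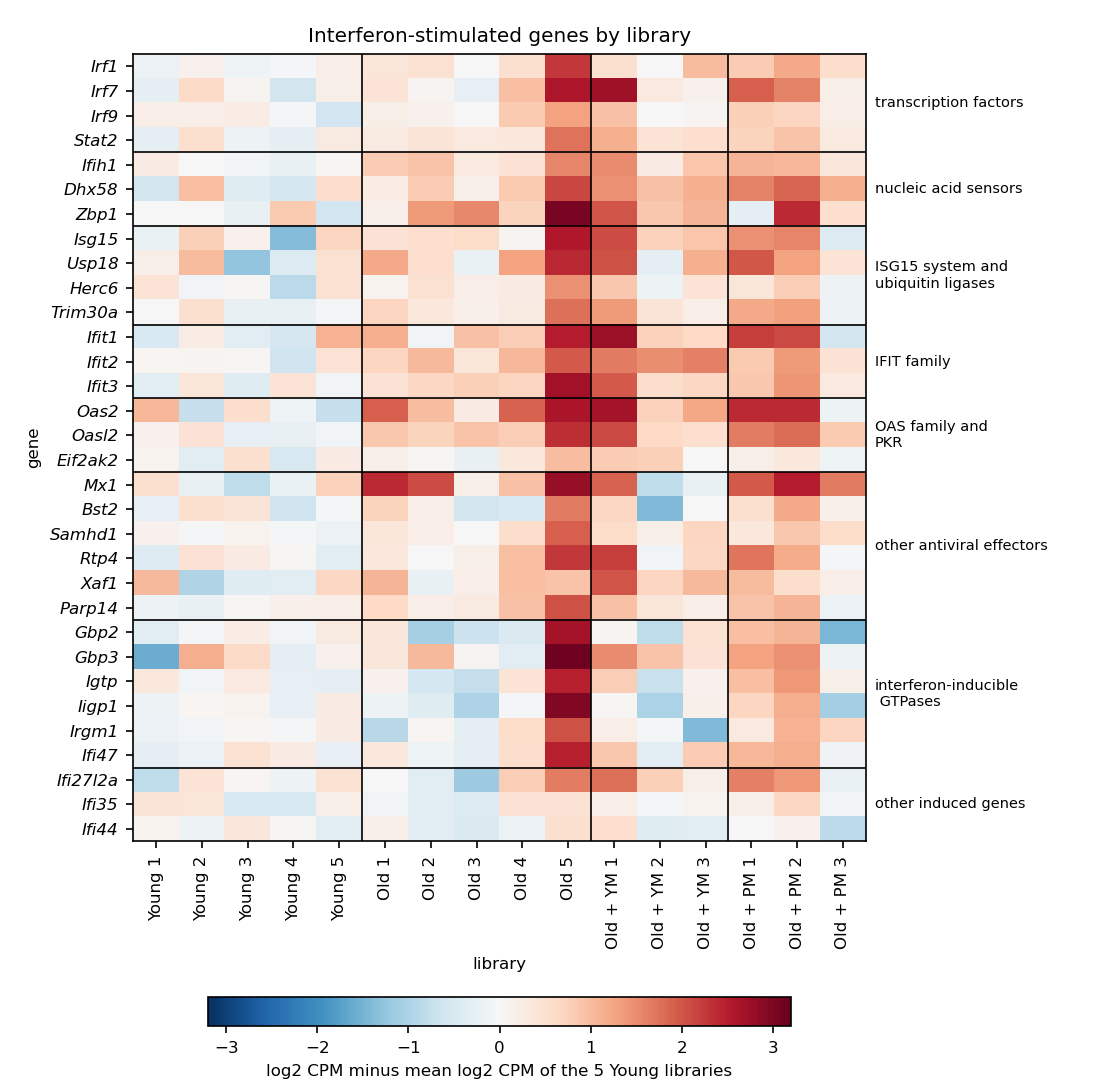
Levels of the 32 tested interferon-stimulated genes (rows, in classes by role) in the 16 libraries (columns), coloured by log2 CPM minus the mean log2 CPM of the 5 Young libraries, with red above and blue below. Old 5 was above every Young library for 31 of the 32 genes, and Old + YM 1, Old + PM 1 and Old + PM 2 were so for 28, 26 and 29.

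Promoter sequences of the members were read from RefSeq windows reaching from 250 bases before to 50 bases after each gene's start (GRCm38.p6), found for 24 of the 33. The core of the interferon-stimulated response element was searched on both strands as GAAA, any 2 bases, and GAAA again, and 13 of 24 windows held it (54.2%), against 3.99% of the windows of 27025 genes. The core of the gamma-activated sequence, TTCNNNGAA, reads the same on both strands and was in 8 of 24 (33.3%), against 9.55% of all windows. The 2 cores can overlap in 1 stretch. The members were picked as known interferon targets, so these shares describe the choice of genes. Printed below are 4 response-element promoters, among them those of Ifit1 and Ifit3, with each matched core in capitals.
Isg15 (chr4:156200849-156200928, minus strand): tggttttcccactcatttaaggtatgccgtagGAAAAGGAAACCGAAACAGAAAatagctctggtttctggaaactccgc
Ifit1 (chr19:34640759-34640838, plus strand): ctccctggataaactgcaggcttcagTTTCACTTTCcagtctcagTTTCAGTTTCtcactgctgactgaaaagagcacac
Ifit3 (chr19:34583349-34583428, plus strand): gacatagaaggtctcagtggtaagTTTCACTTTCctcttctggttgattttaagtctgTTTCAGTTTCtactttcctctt
Gbp3 (chr3:142559954-142560019, plus strand): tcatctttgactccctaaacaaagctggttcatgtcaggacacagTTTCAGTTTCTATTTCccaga

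A second set holds the gamma-activated core, alone in Irf1 and Ifit2 and beside or run together with the response-element core in Igtp and Bst2, with every matched core in capitals. They include a called member (Ifit2).
Irf1 (chr11:53769894-53769953, plus strand): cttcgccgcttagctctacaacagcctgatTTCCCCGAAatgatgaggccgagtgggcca
Ifit2 (chr19:34550444-34550493, plus strand): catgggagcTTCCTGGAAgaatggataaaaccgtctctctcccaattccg
Igtp (chr11:58199476-58199545, plus strand): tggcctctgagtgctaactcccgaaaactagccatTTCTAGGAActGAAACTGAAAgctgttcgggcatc
Bst2 (chr8:71537563-71537632, minus strand): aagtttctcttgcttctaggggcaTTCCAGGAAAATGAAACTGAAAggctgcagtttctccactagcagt
A match is a description of letters and not of a bound site. The Oasl2 window held neither core, and the Ifih1 window held the response-element core 32 bases after the start.

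Among the nucleic acid sensors, Ifih1 encodes MDA5, the cytosolic sensor of long double-stranded RNA (chromosome 2, 62595798 to 62646255, GRCm38). Ifih1 was at 6.20, 5.08, 4.86, 4.31 and 5.39 CPM in Young 1 to 5, and at 9.16, 9.85, 6.47, 7.21 and 15.5 CPM in Old 1 to 5. Every Old library lay above every Young library, by a narrow margin in Old 3. Ifih1 rose by 0.90 on the log2 scale (SE 0.26, edgeR adjusted p = 0.0265), and by 0.66 without Old 5 (SE 0.24, edgeR adjusted p = 0.108). In Old + YM 1 to 3, Ifih1 read 15.1, 6.20 and 9.71 CPM, and in Old + PM 1 to 3 it read 11.2, 10.9 and 6.62 CPM, so the treated libraries spanned the Old range.

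Dhx58 encodes LGP2, a regulator of MDA5 signalling that senses RNA but lacks the signalling domain. Its counts were low, from 4 to 39 per library. Dhx58 read 0.413, 1.63, 0.506, 0.431 and 1.18 CPM in Young 1 to 5, and 0.896, 1.43, 0.835, 1.46 and 3.89 CPM in Old 1 to 5. Except for Old 5, the Old libraries lay inside the Young range, and the log2 difference of 1.03 (SE 0.49) missed the threshold (edgeR adjusted p = 0.175) and was 0.48 without Old 5. All 6 treated libraries were higher than 4 of the 5 Young libraries. They read 2.38, 1.58 and 1.84 CPM for Old + YM 1 to 3 and 2.61, 3.18 and 1.86 CPM for Old + PM 1 to 3.

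Zbp1, a sensor of Z-form nucleic acid that can start necroptosis, had 2 to 10 counts in the Young libraries. The Zbp1 levels were 0.517, 0.508, 0.405, 1.08 and 0.263 CPM in Young 1 to 5, and 0.597, 1.63, 1.88, 0.974 and 5.69 CPM in Old 1 to 5. The groups overlapped through Old 1 and Old 4, and the log2 difference was 1.92 (SE 0.66, edgeR adjusted p = 0.0573). Without Old 5 it was 1.16. Treated libraries ran from 0.373 CPM in Old + PM 1 to 3.54 CPM in Old + PM 2.

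The IFIT proteins bind RNA that lacks the marks of host messenger RNA, and their genes lie side by side on chromosome 19. Ifit2 (chromosome 19, 34550694 to 34576419) read 2.79, 2.85, 2.73, 1.62 and 3.68 CPM in Young 1 to 5, and 4.38, 5.64, 3.55, 5.75 and 11 CPM in Old 1 to 5. The groups touched at 1 point, Old 3 lying just under Young 5. Ifit2 rose by 1.15 on the log2 scale (SE 0.30, edgeR adjusted p = 0.0135), and by 0.82 without Old 5 (SE 0.26, edgeR adjusted p = 0.0581). It kept its call with any other library left out.

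Among treated kidneys Ifit2 was even in Old + YM, at 8.80, 7.78 and 8.59 CPM in libraries 1 to 3. It read 4.94, 7.08 and 3.73 CPM in Old + PM 1 to 3, all under the 3 Old + YM libraries. All 6 treated libraries lay above every Young library.

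Ifit3 read 8.47, 14.1, 8.30, 14.7 and 10.3 CPM in Young 1 to 5, and 15.1, 17.2, 18.6, 17.4 and 70.4 CPM in Old 1 to 5. The 4 other Old libraries sat close together just above the highest Young library, and Old 5 far above. The log2 difference of 1.31 (SE 0.47) did not pass (edgeR adjusted p = 0.0854) and was 0.61 without Old 5. Ifit3 has a near-identical neighbour, Ifit3b, and its counts are uncertain because no source used here says how reads mapping to both were handled. Ifit1 moved in the same range, with a log2 difference of 1.27 (SE 0.66, edgeR adjusted p = 0.226; 0.69 without Old 5), and its highest level, 14.4 CPM, was in Old + YM 1.

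The OAS enzymes make oligoadenylates that switch on RNase L, and Eif2ak2 encodes PKR, a kinase that stops translation on double-stranded RNA. Oasl2, an OAS-like protein (chromosome 5, 114896936 to 114912234), read 3.31, 4.17, 2.43, 2.48 and 2.76 CPM in Young 1 to 5. It read 5.58, 4.97, 5.74, 5.26 and 16.2 CPM in Old 1 to 5. All Old libraries lay above all Young libraries, and 4 of them within a narrow band. Oasl2 rose by 1.31 on the log2 scale (SE 0.38, edgeR adjusted p = 0.0298). Without Old 5 the difference was 0.82 (SE 0.31, edgeR adjusted p = 0.12).

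The treated Oasl2 levels were 13.5, 4.74 and 4.40 CPM in Old + YM 1 to 3 and 9.60, 10.7 and 5.49 CPM in Old + PM 1 to 3. Each of these lay above every Young library.

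Oas2 was near the detection limit, with 5, 0, 3, 1 and 0 counts in Young 1 to 5 and 11, 5, 2, 11 and 19 counts in Old 1 to 5. The groups overlapped, and the log2 difference of 2.24 (SE 0.86) did not pass (edgeR adjusted p = 0.0914) and was 1.83 without Old 5. In Old + YM 1 to 3 the counts were 19, 3 and 6, and in Old + PM 1 to 3 they were 17, 18 and 1. Oas1a, with 1, 0, 2, 2 and 3 counts in Young 1 to 5 and 3, 10, 7, 1 and 14 in Old 1 to 5, was too low to test. Treated kidneys held 9, 2 and 1 counts of Oas1a in Old + YM and 11, 6 and 1 in Old + PM. Eif2ak2 had a log2 difference of 0.28 (SE 0.28, edgeR adjusted p = 0.553), which was 0.040 without Old 5.

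Mx1, a dynamin-like antiviral GTPase that is known to be defective in C57BL/6 mice, had the largest fitted difference of the members (chromosome 16, 97447035 to 97462907). Its counts were 3, 1, 0, 1 and 3 in Young 1 to 5, and 17, 14, 2, 5 and 23 in Old 1 to 5. Old 3 lay inside the Young range and Old 1, Old 2 and Old 5 well above it. Mx1 rose by 2.69 on the log2 scale (SE 0.85, edgeR adjusted p = 0.0399), and by 2.33 without Old 5 (SE 0.88, edgeR adjusted p = 0.114). The call was lost on leaving out any of 8 of the 16 libraries.

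With treatment, Mx1 had 11, 0 and 1 counts in Old + YM 1 to 3 and 13, 21 and 9 in Old + PM 1 to 3. The Old + YM libraries thus held both the Young level and the Old level. The rest of that class comprises Bst2 (tetherin, which holds budding virions), Samhd1 (which depletes deoxynucleotides), Rtp4, Xaf1 (a proapoptotic factor) and Parp14 (an ADP-ribosyltransferase). None of these 5 passed, and their log2 differences ran from 0.52 for Bst2 to 1.0 for Rtp4, and without Old 5 from -0.00804 for Bst2 to 0.54 for Parp14.

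**Figure D2:**
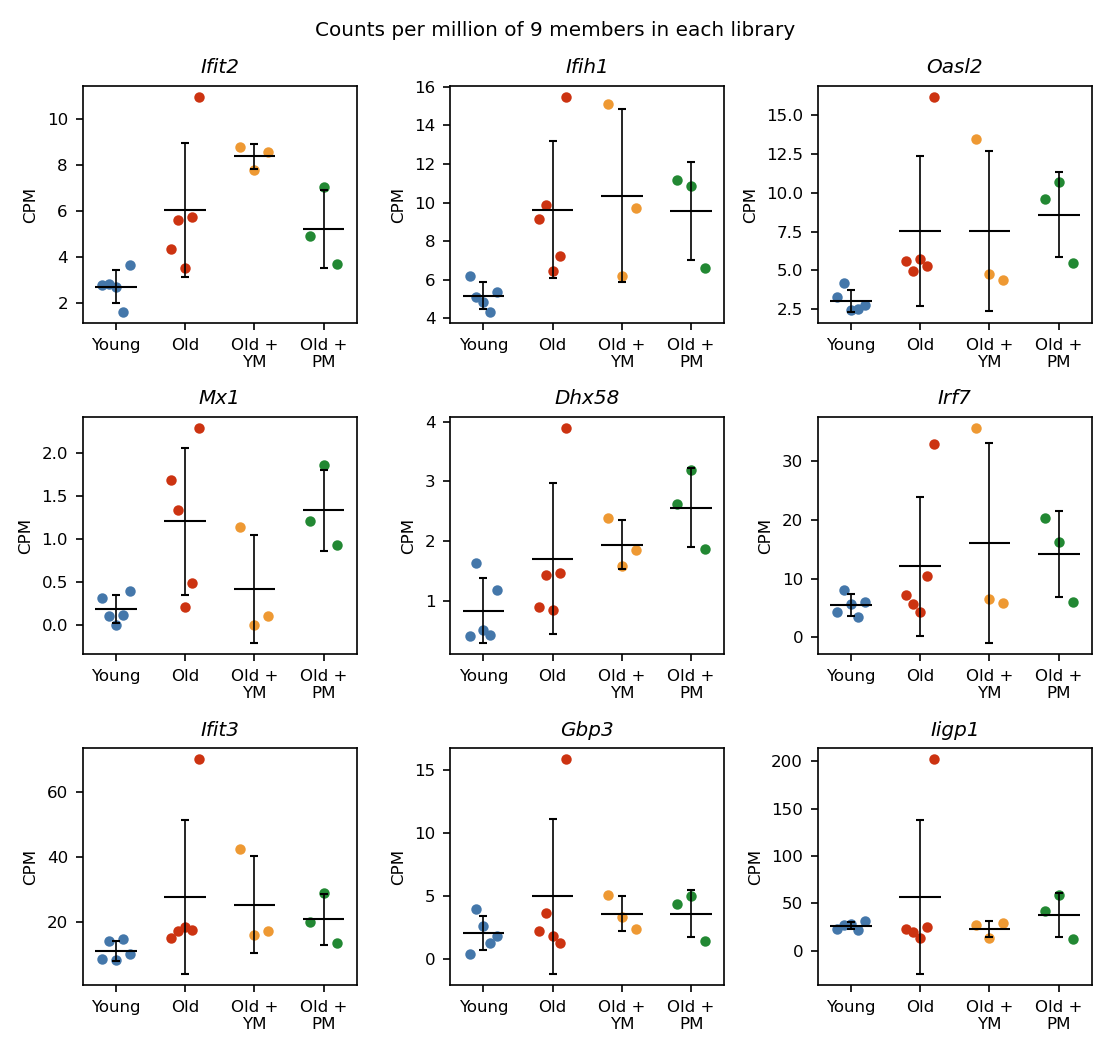
Levels in CPM of 9 members in each library of the 4 groups, 1 point per library, with the group mean as a line and 1 SD as bars. Ifit2, Ifih1, Oasl2, Mx1, Dhx58, Irf7, Ifit3 and Gbp3 were chosen by rule, and Iigp1 was added after its values were seen; in Old, 1 point (Old 5) lies far above the others in most panels.

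The transcription factors carry the signal to these genes. Irf7, the factor that amplifies type I interferon production, read 4.24, 8.13, 5.67, 3.45 and 6.05 CPM in Young 1 to 5. Its Old levels were 7.27, 5.64, 4.38, 10.4 and 33 CPM, and only Old 4 and Old 5 lay above the Young range. Irf7 did not pass (log2 difference 1.14, SE 0.66, edgeR adjusted p = 0.291; 0.33 without Old 5). The highest of all 16 libraries was Old + YM 1 at 35.7 CPM, beside 6.57 and 5.83 CPM in Old + YM 2 and 3, and Old + PM 1 to 3 read 20.3, 16.3 and 6.00 CPM. Irf1, Irf9 and Stat2 had log2 differences of 0.55 to 0.98, none called, and of 0.30 to 0.35 without Old 5.

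In the ISG15 system, Isg15 is a ubiquitin-like tag, Herc6 a ligase for it and Usp18 the protease that removes it and damps the receptor. Usp18 had the largest difference of the class. It read 1.45, 2.74, 0.405, 0.863 and 1.84 CPM in Young 1 to 5 and 3.19, 1.91, 1.04, 3.31 and 7.49 CPM in Old 1 to 5. The groups overlapped through Old 2 and Old 3 (log2 difference 1.21, SE 0.57, edgeR adjusted p = 0.168; 0.69 without Old 5). Old + YM 1 to 3 were at 5.80, 0.973 and 2.97 CPM and Old + PM 1 to 3 at 5.59, 3.36 and 1.76 CPM. Isg15, Herc6 and the TRIM protein gene Trim30a had log2 differences of 0.55 to 1.08, none called, and of 0.21 to 0.36 without Old 5.

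The interferon-inducible GTPases comprise the guanylate-binding proteins Gbp2 and Gbp3 and the immunity-related GTPases Igtp, Iigp1, Irgm1 and Ifi47, which act on vacuoles of intracellular microbes and respond to interferon gamma above all. Gbp3 read 0.413, 3.96, 2.63, 1.29 and 1.84 CPM in Young 1 to 5, and 2.19, 3.63, 1.77, 1.27 and 15.9 CPM in Old 1 to 5. Without Old 5 the Old libraries fell inside the Young range. The log2 difference of 1.28 (SE 0.69) did not pass (edgeR adjusted p = 0.243) and was 0.12 without Old 5. Treated kidneys held 5.07, 3.28 and 2.35 CPM in Old + YM 1 to 3 and 4.38, 4.95 and 1.45 CPM in Old + PM 1 to 3.

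Iigp1 was chosen after its values were seen. The Young libraries were at 23.1, 27.3, 28.0, 21.5 and 31.2 CPM, and Old 1 to 4 at 23.3, 19.7, 12.9 and 24.9 CPM, in or under the Young range. Old 5 was at 203 CPM. The fitted difference was 1.11 with Old 5 and -0.38 without it. For Igtp, also chosen after its values were seen, it was 0.88 and -0.13. Igtp shares exons with Irgm2 on the same strand, and reads from these exons cannot be told apart. All 6 GTPases had differences above 0 in the full comparison, with a median of 0.95, and 2 of 6 without Old 5, with a median of -0.09. Besides Old 5, Old 1 lay above the Young range for Gbp2, and Old 4 did for Igtp, Irgm1 and Ifi47.

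The remaining members are Ifi27l2a, Ifi35 and Ifi44. Ifi27l2a, a mitochondrial membrane protein gene, read 3.93, 9.55, 7.39, 6.26 and 9.99 CPM in Young 1 to 5 and 6.97, 5.45, 3.03, 12.4 and 22.6 CPM in Old 1 to 5. Old 4 and Old 5 lay above the Young range and Old 3 below it (log2 difference 0.45, SE 0.53, edgeR adjusted p = 0.635; -0.091 without Old 5). Old + YM 1 to 3 read 24.5, 12 and 8.08 CPM and Old + PM 1 to 3 read 21.9, 18.7 and 6.11 CPM. Ifi35 and Ifi44 were at 0.00 and -0.04, the lowest differences of all tested members, and at -0.12 and -0.22 without Old 5.

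Against Young, the mean of the 2 treated groups gave the same size of count. Here too 4 of 32 members rose, Ifih1, Dhx58, Ifit2 and Oasl2, and none fell, where 15.9% of all genes were called 6.27% were called higher and 9.68% lower. This comparison shares the Young libraries with Old against Young, so the values are only set side by side. The log2 differences were 0.95 for Ifih1 (SE 0.25, edgeR adjusted p = 0.0133), 1.28 for Ifit2 (SE 0.29, edgeR adjusted p = 0.00442) and 1.41 for Oasl2 (SE 0.37, edgeR adjusted p = 0.0144). All 3 kept their calls with any library left out. For Dhx58 it was 1.42 (SE 0.47, edgeR adjusted p = 0.0468), a call that held in 7 of 16 such fits. Mx1 at 2.03 (SE 0.86) did not pass (edgeR adjusted p = 0.116).

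Of the 32, 31 had a difference above 0, against 50.7% of all genes, and the median was 0.82, against 0.01. Treated and Young libraries did not overlap for Ifih1, Ifit2, Oasl2 and Samhd1 (12.5%, against 3.8% of all genes). The number called was 11 when Old 5, which enters only the shared spread, was left out of the fit, with 18.2% of all genes called, and 7 without Old + PM 3, with 18.1%.

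**Figure D3:**
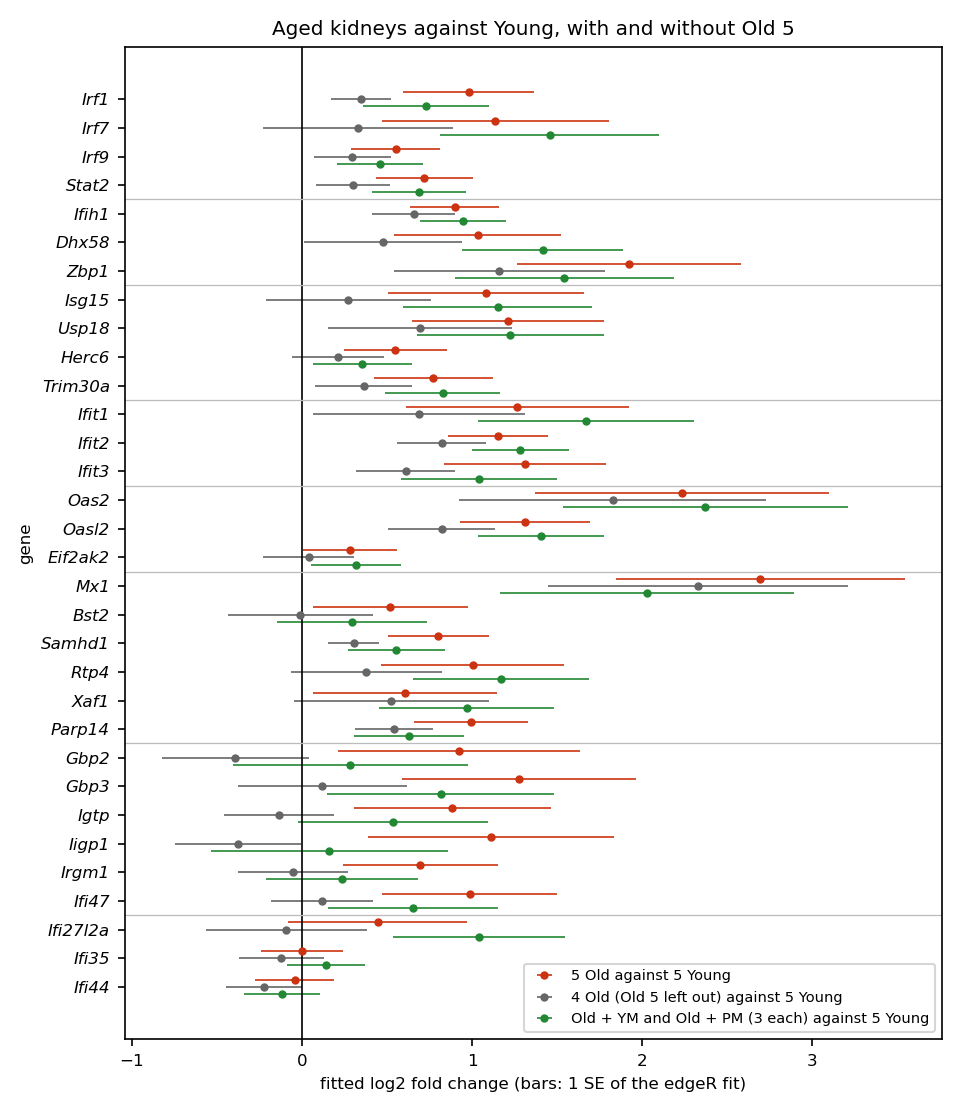
Fitted log2 differences of the 32 tested members with 1 SE, for the 5 Old libraries against 5 Young (red), the same without Old 5 (grey), and the mean of Old + YM and Old + PM against Young (green). The grey points lie left of the red ones, and the GTPases fall to between -0.39 and 0.12.

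The formulas were compared with untreated Old kidneys to ask whether treatment shifted these genes, and no member passed in either comparison. In Old + YM against Old, 0 of 32 members were called by edgeR, where 0.0205% of all genes were, and no member had an unadjusted p under 0.05, which 9.48% of all genes had. Fitted differences ran from -1.48 for Mx1 to 0.78 for Xaf1, 15 above 0 and 17 below (45.5% of all genes were above 0), with a median of -0.04 and a median SE of 0.54. In Old + PM against Old, 0 of 32 were called, as for all genes (0%), and no member had an unadjusted p under 0.05, which 6.16% of all genes had. These differences ran from -0.60 for Iigp1 to 0.63 for Ifi27l2a, 14 above 0 and 18 below (46.2% of all genes were above 0), with a median of -0.03 and a median SE of 0.52. DESeq2 and limma-voom called none either. No member separated the treated from the Old libraries without overlap. Among all genes, 5.15% did so with Old + YM higher and 3.95% with it lower, and for Old + PM the shares were 1.92% and 2.1%.

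Differences of the size of these standard errors, and larger ones, could not be resolved with these libraries. In Old + YM against Old, Mx1 at -1.48 (SE 0.90) and Iigp1 at -1.31 (SE 0.87) were not called. Single libraries moved both medians. That of Old + YM against Old became -0.63 without Old + YM 1 and 0.43 without Old 5, where 29 of 32 members were above 0. That of Old + PM against Old became 0.58 without Old 5, where all 32 were above 0. Iigp1 in Old + PM against Old read 0.89 without Old 5.

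Set against each other, Old + PM and Old + YM had no member called by edgeR (0 of 32, and 0% of all genes). No member had an unadjusted p under 0.05, against 12.8% of all genes, and DESeq2 and limma-voom called none. The differences ran from -0.83 for Xaf1 to 1.63 for Mx1, 19 above 0 and 13 below (51.5% of all genes were above 0), with a median of 0.12 and a median SE of 0.59. Ifit2 was lower in every Old + PM library than in every Old + YM library (log2 difference -0.67, SE 0.36, edgeR adjusted p = 0.435). Irgm1, chosen after its values were seen, was higher in every Old + PM library (5.50, 9.73 and 7.24 CPM, against 5.18, 4.26 and 1.53 CPM; log2 difference 1.04, SE 0.60, edgeR adjusted p = 0.468). Groups of 3 did not overlap for 11.9% of all genes in each direction, so 1 member in each (3.12%) is under the background.

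The members varied more between libraries of 1 aged group than between the aged groups. Over the 32 tested members, the mean log2 level relative to the Young mean ran from -0.25 to 0.18 in the 5 Young libraries. It was 0.50, 0.31, 0.04, 0.56 and 2.06 in Old 1 to 5. It was 1.34, 0.18 and 0.47 in Old + YM 1 to 3, and 1.04, 1.28 and 0.09 in Old + PM 1 to 3. Thus 4 aged libraries stood above 1 log2 unit, at least 1 in each aged group, and Old 3, Old + YM 2 and Old + PM 3 lay in or at the edge of the Young range.

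Old 5 was the highest of the 16 libraries for 25 of 32 members (78.1%), against 13.4% of all genes. Old + YM 1 was highest for Ifi27l2a, Ifi44, Ifit1, Irf7, Oas2 and Xaf1 (6 of 32, or 18.8%, against 3.94% of all genes), and Old + PM 2 for Ifi35. No Young library was highest for any member. Old 5, Old + YM 1, Old + PM 1 and Old + PM 2 were among the 4 highest libraries for 96.9%, 81.2%, 62.5% and 84.4% of members, against 31.3%, 23.8%, 18% and 22.9% of all genes.

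The high libraries differed by class. In Old 5 the GTPases were highest, with a class mean 2.62 log2 units above Young, beside 2.38 for the IFIT genes, 1.99 for the OAS genes and PKR and 1.97 for the transcription factors. In Old + YM 1 the IFIT genes were at 2.12, the OAS genes and PKR at 1.86, the transcription factors at 1.33 and the GTPases at 0.58, so the GTPases went from the highest to the lowest of these 4 classes while the order of the others was the same. From Old 5 to Old + YM 1, all 6 GTPases were lower, with log2 differences of -2.92 to -1.61 and a median of -1.77. The 3 IFIT genes ranged from -0.72 to 0.25 and the 3 tested OAS genes and PKR from -0.26 to 0.05. The drop was not confined to the GTPases. All 3 sensors (median -0.67) and all 4 genes of the ISG15 class (median -0.44) were lower too. Old + YM 1 was the higher for 1 of 6 other antiviral effectors (median -0.95) and 2 of 3 remaining members (median 0.01). Within the transcription factors, the difference was -1.74 for Irf1 and 0.12 for Irf7. These are differences between 2 single libraries of different groups, with no replicate check.

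In Old + PM 1 and Old + PM 2 the GTPases, at 0.88 and 1.22, lay between those of Old + YM 1 and Old 5, and the IFIT genes, at 1.31 and 1.62, lay under both. In the other aged libraries the GTPases, at -0.49 to 0.12, stayed within or near the Young range of -0.39 to 0.30. The IFIT genes were at 0.53 to 0.98 in Old 1 to 4 and Old + YM 2 and 3, and at 0.06 in Old + PM 3, where Young libraries ran from -0.25 to 0.49.

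**Figure D4:**
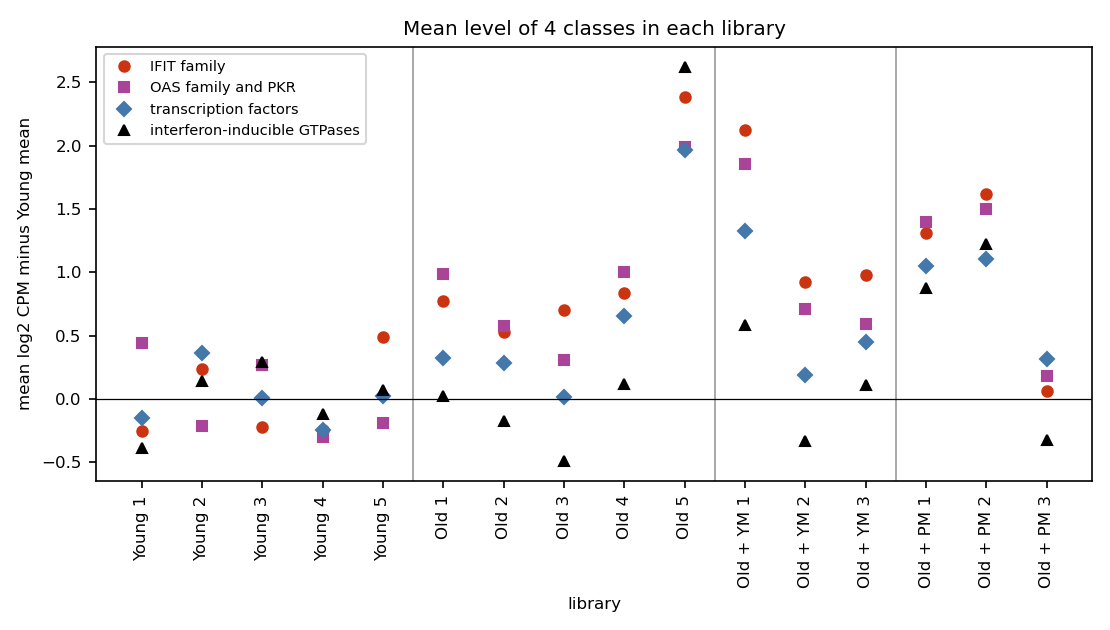
Mean log2 CPM minus the Young mean for the IFIT genes, the OAS genes with PKR, the transcription factors and the interferon-inducible GTPases in each of the 16 libraries. The GTPases (triangles) are the highest class in Old 5 at 2.62 and the lowest of the 4 in Old + YM 1 at 0.58.

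Upstream of these genes, interferon transcripts were at or near 0. Of 20 interferon genes listed, 2 had any count and none could be tested. Ifnb1 had 0 counts in all 16 libraries, which at 3 counts allows up to 0.265 to 0.394 CPM per library, for counting error only. Ifng, the gene of interferon gamma, had 14 counts in Old 5, 3 in Young 5, 1 in Old + YM 1 and 1, 2 and 5 in Old + PM 1 to 3, and 0 in the rest. Ifnz had 3 counts, all in Old + PM 1.

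Of 24 genes of the receptors and JAK-STAT signalling, 23 were tested, and 3 rose in Old against Young while none fell, with a median of 0.15. That is 13% called, near the 13.6% of all genes. They were Il10rb, which is shared by the receptors of interferon lambda and interleukin 10 (log2 0.52, SE 0.13, edgeR adjusted p = 0.0122), Stat3 (0.53, SE 0.10, edgeR adjusted p = 0.00176) and the myeloid factor Irf8 (1.23, SE 0.37, edgeR adjusted p = 0.0435). All 3 kept their calls without Old 5, where Irf8 was at 0.59. The type I receptor subunits Ifnar1 and Ifnar2 had log2 differences of 0.53 and 0.32 (edgeR adjusted p = 0.0729 and 0.0702). The gamma receptor subunits Ifngr1 and Ifngr2 had 0.15 and 0.52, and the lambda subunit Ifnlr1 had 0.51 (edgeR adjusted p = 0.699, 0.173 and 0.306). In the treated mean against Young, Ifnar1 (0.56, edgeR adjusted p = 0.0426), Il10rb and Stat3 rose. That is 13% of the 23 called, against 15.9% of all genes.

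Of 26 tested sensing genes upstream of interferon, none passed in Old against Young by edgeR. On the higher side 7 of 26 had an unadjusted p under 0.05, where 14% of all genes did. In the treated mean against Young, the RNA-editing enzyme gene Adar rose by 0.51 and the adaptor gene Traf3 fell by 0.40 on the log2 scale (edgeR adjusted p = 0.0473 and 0.0383). These 2 are 7.69% of the 26, under the 15.9% of all genes called.

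Summed levels of marker genes of other cells are given beside those of the members. The summed level of 20 macrophage and dendritic cell markers was 169 to 207 CPM in Young. It was 248, 226, 201, 331 and 892 CPM in Old 1 to 5, 265, 237 and 255 CPM in Old + YM 1 to 3 and 320, 419 and 269 CPM in Old + PM 1 to 3. Of 19 tested, 13 rose in Old against Young (68.4%, with 13.6% of all genes called) and none fell. Without Old 5, 9 rose and 1 fell (Csf1r), with 8.29% of all genes called. Both shares of all genes also apply to the marker lists below. Csf1r had 426 to 822 counts in the Young libraries, the most of any marker on this list there. At most 1 of the 20 markers was at 0 in any library, Flt3 in Young 1, Young 4 and Old 4. The summed members were at 229 to 275 CPM in Young, at 311, 273, 234, 348 and 1103 CPM in Old 1 to 5, at 525, 255 and 337 CPM in Old + YM 1 to 3 and at 459, 537 and 259 CPM in Old + PM 1 to 3. In Old + YM 1 the members were high, while its macrophage sum was near those of Old + YM 2 and 3.

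Summed T and NK cell markers (15 genes, 4 of 9 tested higher in Old and 0 of 8 without Old 5) were at 4.96 to 8.33 CPM in Young and 7.75 to 17.7 CPM in Old 1 to 4. Old 5 held 78.2 CPM of them, Old + YM 1 held 12.5, and Old + PM 1 to 3 held 18.3, 31.2 and 16.4. None of the 15 was at 0 in Old 5, Old + PM 1 and Old + PM 2, and 1 to 7 were in the others, most often Gzmb and Ncr1. Plasmacytoid dendritic cell markers (5 genes) summed to 33.3 CPM in Old 5 and 6.31 to 14.7 CPM in the 15 others. Of 3 tested, 1 was higher and 1 lower in Old (0 and 1 without Old 5). Siglech or Ccr9 was at 0 in 5 of the other libraries. In Old 5, Ly6d had 209 counts, Pacsin1 71 and Ccr9 36, but Siglech 2 and Cox6a2 15. Old 1 to 4 held 9, 4, 4 and 7 counts of Siglech and 30, 42, 20 and 41 of Cox6a2. B and plasma cell markers (11 genes, 5 of 9 tested higher in Old and 3 without Old 5) summed to 8.20 to 25 CPM in Young and 94.5 to 455 CPM in the aged libraries, with Old 5 at 232. Of these, 1 to 4 were at 0 in each library, most often Cd79a. Neutrophil markers (7 genes, 1 of 2 tested higher in Old) summed to 1.52 to 2.70 CPM in Young, 2.79 to 15.4 CPM in Old and 1.86 to 23.2 CPM in the treated libraries. Endothelial markers (10 genes, 1 higher in Old and 0 without Old 5) summed to 500.3 to 701 CPM over all 16 libraries. The proximal tubule sum of Old 5, 10130 CPM, was the lowest of the 16. The part of these markers in the members' levels was not tested.

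**Figure D5:**
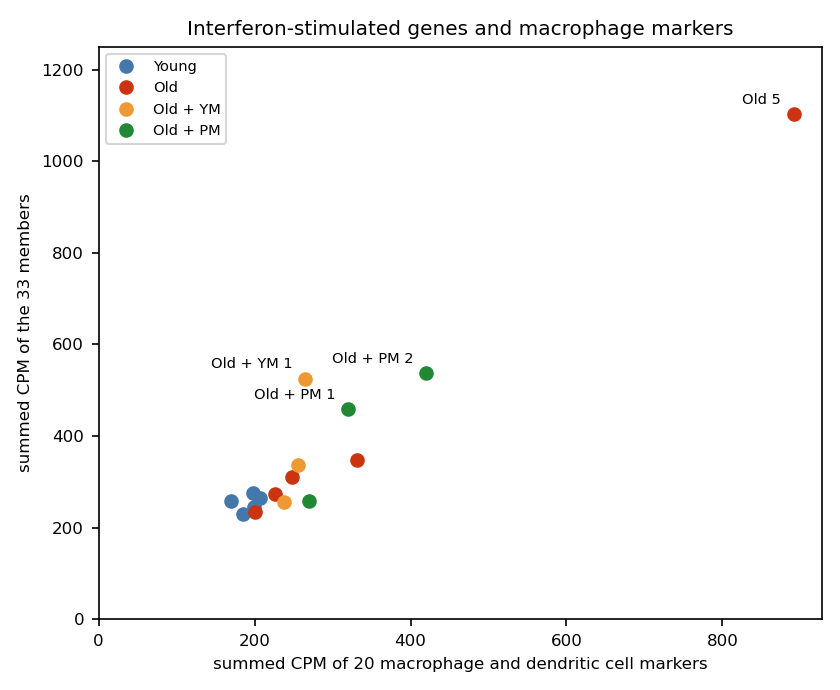
Summed CPM of the 33 members against summed CPM of 20 macrophage and dendritic cell markers, 1 point per library, coloured by group. Old 5 is highest on both axes at 892 and 1103, and Old + YM 1, at 265 and 525, lies above the other libraries of a like marker level.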

How the data were processed

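Kidney RNA was sequenced from 3′ ends (QuantSeq, 500 ng of total RNA per library, per the labels' protocols). The authors deposited raw counts per gene symbol for each of the 16 libraries, in whole numbers. Per the submitters' processing notes, Bowtie2, bedtools and mm10 were used; no source used here gives versions, annotation, strand setting or the handling of multi-mapping reads. In GENCODE M21, 6 members share exons with a gene on the same strand (Irf9, Herc6, Rtp4, Parp14, Igtp and Ifi47). Exons of 8 members overlap a gene on the opposite strand. Reads from exons shared on the same strand cannot be told apart. For the opposite strand this depends on the strand setting of the counting, which is not known here.

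Counts were filtered (filterByExpr, minimum count 10; 26214 symbols removed), scaled by TMM and tested in 1 fit of all 16 libraries with edgeR 4.0.16 (glmQLFit, robust; R 4.3.3), two-sided, with Benjamini-Hochberg adjustment over 14665 genes and a threshold of 0.05. The fit was checked on simulated counts. Within groups no libraries were duplicates: chi-square per gene was 7.24 to 61.2. Alternatives used DESeq2 1.42.0, limma 3.58.1, other scalings, filters and left-out libraries. Level differences use log2 CPM with a prior count of 2.

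The members, lists and tests were chosen with earlier results of these data known. Full values are given for members called in any comparison and for the member with the largest Old against Young difference in each role class; the others are given by ranges. Besides the members, lists covered further interferon-stimulated genes, interferons, receptors with JAK-STAT signalling, sensing genes, and markers of macrophages, plasmacytoid dendritic cells, T and NK cells, B and plasma cells, neutrophils, endothelium and proximal tubule. Of 255 listed entries, 4 were found under newer symbols and 3 had no matching row. Gene positions are from GENCODE M21 (GRCm38), promoter windows from RefSeq (GRCm38.p6). The values of 1 gene of the receptor and JAK-STAT list are not reported here.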

Additional observations from a re-analysis of the deposited data

Results flagged for a closer look

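In 20 of the 33 members the Old 5 library lay farther from the other Old libraries than Dixon's 95% critical value for 5 samples allows (0.710). Over all tested genes, 9.25% were flagged at either end in any Old library, and 524 of 14665 were flagged high in Old 5. Chance alone flags about 1 in 20 groups. The members share the library, so these flags are not independent. Levels in Old 5 were, among the factors, 137 CPM for Irf1, 33 for Irf7 and 21.7 for Stat2. The sensors Dhx58 and Zbp1 read 3.89 and 5.69 CPM. In the ISG15 system, Isg15 read 9.69 CPM, Herc6 17.6 and Trim30a 25.7. Ifit1 read 12.1 CPM, Ifit3 70.4 and Oasl2 16.2. Other effectors were Samhd1 at 77 CPM, Rtp4 at 25.7 and Parp14 at 47.6. All 6 GTPases are among the 20: Gbp2 at 46.5 CPM, Gbp3 at 15.9, Igtp at 99.8, Iigp1 at 203, Irgm1 at 18.9 and Ifi47 at 39.7. The next highest Old library was at 24.9 CPM for Iigp1 and at 18.6 CPM for Ifit3.

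In Young, 1 member met the same criterion: Trim30a in Young 2, at 10.6 CPM, with the next library at 7.44 CPM. Over all tested genes in Young the share was 6.89%.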

How the results depend on the processing

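Shares of all genes called in either direction by the same run are given in brackets. In Old against Young, 4 members were called higher (13.6%), DESeq2 called 8 (16.9%) and limma-voom 1 (12.1%). Leaving out 1 library gave 0 (without Old 5, 8.29%) to 6 (without Old 3, 11.7%). For the treated mean against Young, also 4 (15.9%), DESeq2 called 7 (19.2%) and a fit of only the groups compared 9 (19.2%). Leaving out 1 library there gave 3 to 11 (11 without Old 5, 18.2%). Counts of members called in the 3 comparisons among aged groups stayed at 0 in every alternative run. Same-numbered libraries of different groups showed little joint deviation (3 of 20 correlations over 0.1, range -0.30 to 0.16). Whether the numbers pair the libraries was not tested further, and the main fit used no pairing. With the replicate number as a block, 5 members were called in Old against Young (14.3%) and 10 in the treated mean against Young (15.8%). Signs of log2 differences turned in Old against Young when Old 5 was left out. Over all left-out libraries Ifi27l2a ran from -0.091 to 0.67, Iigp1 from -0.38 to 1.36 and Igtp from -0.13 to 1.10, lowest each time without Old 5. Also turned without Old 5 were Gbp2 (0.92 to -0.39), Irgm1 (0.70 to -0.052), Bst2 (0.52 to -0.00804) and Ifi35 (0.0036 to -0.12). Iigp1 in Old + PM against Old turned under limma-voom (0.00876), the replicate block (0.54) and without Old 5, within -1.05 to 0.89 over left-out libraries. Apart from the left-out libraries, the cause was not tested. Low counts limit Oas1a, Oas2, Mx1, Zbp1, Xaf1 and Dhx58.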

Other observations

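A further 70 interferon-stimulated genes outside the 33, of which 57 were tested, were compared in Old against Young: 13 rose and 1 fell (24.6% called, against 13.6% of all genes), with a median log2 difference of 0.66. Without Old 5, an alternative chosen after seeing the data, 3 of 57 rose (Oas1c, Epsti1 and Gbp5) and 1 fell (Shisa5), with a median of 0.28. In that fit 8.29% of all genes were called in either direction. The 13 that rose with all libraries included 2 guanylate-binding proteins. Gbp5, which helps inflammasome assembly, rose by 2.38 on the log2 scale (SE 0.52, edgeR adjusted p = 0.00504; 1.66 and 0.025 without Old 5), and Gbp8 by 2.87 (SE 0.74, edgeR adjusted p = 0.0137; 1.71 and 0.104 without Old 5). Gbp5 read 0.310, 0.711, 0.506, 0.755 and 0.526 CPM in Young 1 to 5 and 2.49, 0.957, 1.46, 2.34 and 7.69 CPM in Old 1 to 5, so that every Old library lay above every Young one. Rigi, the gene of the RNA sensor RIG-I, was at 17.6, 18.0, 17.3, 17.0 and 19.2 CPM in Young 1 to 5 and at 21.5, 26.1, 32.9, 32.5 and 49.1 CPM in Old 1 to 5, again without overlap (log2 difference 0.86, SE 0.23, edgeR adjusted p = 0.0194; 0.66 and 0.0601 without Old 5).

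Also higher were Epsti1 (1.94), Isg20 (1.79), Ifi204 (1.62), Phf11b (1.37), Oas1c (1.31), Slfn2 (1.28), Ifitm1 (1.14), Trim12c (0.96), Parp12 (0.68) and Slfn5 (0.57), each as a log2 difference with an edgeR adjusted p of 0.0466 or less. Shisa5 fell by 0.47. In the treated mean against Young, Oas1c, Parp12, Epsti1, Ifitm1, Ifi204 and Gbp8 rose, and Shisa5 and Rsad2 fell, the latter by 0.34. That is 14% of the 57, under the 15.9% of all genes called. None of the 57 was called by edgeR in Old + YM or Old + PM against Old. There 3 and 2 of the 57 had an unadjusted p under 0.05, against 9.48% and 6.16% of all genes.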
